A study of Mus musculus with 3 samples.

Results

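Tight junction genes were followed through ATAC-seq, which reads how open the chromatin is by where the Tn5 transposase can cut, in mouse skin squamous cell carcinomas. The genes were 10: the claudin genes Cldn1, Cldn3, Cldn4, Cldn7, Cldn8 and Cldn17, the occludin gene Ocln, the tricellular junction genes Marveld2 and Ildr1, and the scaffold gene Tjp1. A region belonged to a gene when its midpoint had that gene as the nearest mm10 protein-coding gene body, at most 50 kb away. That rule gave 58 of the 95842 regions in the table, from 2 for Ildr1 to 18 for Tjp1. The genes were picked with differences between these same libraries already known, so their values are a description and carry no test.

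Tumours had been induced with DMBA, a mutagen, followed by TPA, a tumour promoter, and tumour cells were sorted on the epithelial surface protein Epcam. All mice carried K14Cre, a Cre recombinase driven by the keratin 14 promoter of basal keratinocytes, and RYFP, a YFP reporter, on a mixed background. The control genotype was K14Cre;RYFP, and the other genotype, K14Cre;Fat1fl/fl,RYFP, also carried conditional alleles of the protocadherin gene Fat1. There were 3 libraries with 1 library per group: control Epcam+, Fat1 cKO Epcam+ and Fat1 cKO Epcam-, where cKO stands for conditional knockout. Titles end in Epp or Epm, read here as Epcam+ and Epcam-, the only fractions the study design names. The Fat1 cKO titles differ only in that ending, and whether their shared part names a tumour, a mouse or a pool is not stated. The sources used here do not give age, or whether tumours of several mice were pooled. With 1 library per group no difference between conditions can be tested, and every interval below is a 95% interval that covers counting error only.

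The labels of 2 libraries were at odds with the deposited peak calls, and this shows at the tight junction genes as well. Of their 58 regions, 25 were called as a peak in the library labelled as control Epcam+ and not in that labelled as Fat1 cKO Epcam-. In 25 of these 25 the CPM value (counts scaled to the library's effective size) was higher in the column of the library without the call. The median was 10 counts (2.22 CPM) where the peak was called and 40 counts (7.27 CPM) where it was not. Another 4 regions had the opposite calls, and in 4 of 4 the counts again ran against them, with a median of 1.45 CPM in the library with the call and 4.21 CPM in that without. Over all nuclear regions the counts followed such calls in 3.85% of 22941 and 4.31% of 15831 regions. Between the libraries labelled as control Epcam+ and Fat1 cKO Epcam+ the counts followed the call in 12 of 17 and 9 of 10 of the tight junction regions (56.8% of 24428 and 77.5% of 10426 over all nuclear regions). Between those labelled as Fat1 cKO Epcam+ and Fat1 cKO Epcam- it was 14 of 20 and 5 of 6 (78.6% of 9872 and 53.5% of 16764). For this reason names are written as "the library labelled", and the counts of calls and medians are also given with the count column names of control Epcam+ and Fat1 cKO Epcam- exchanged. Values of single genes and regions are given in the deposited direction, and how they turn is stated once, after the comparisons.

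**Figure D1:**
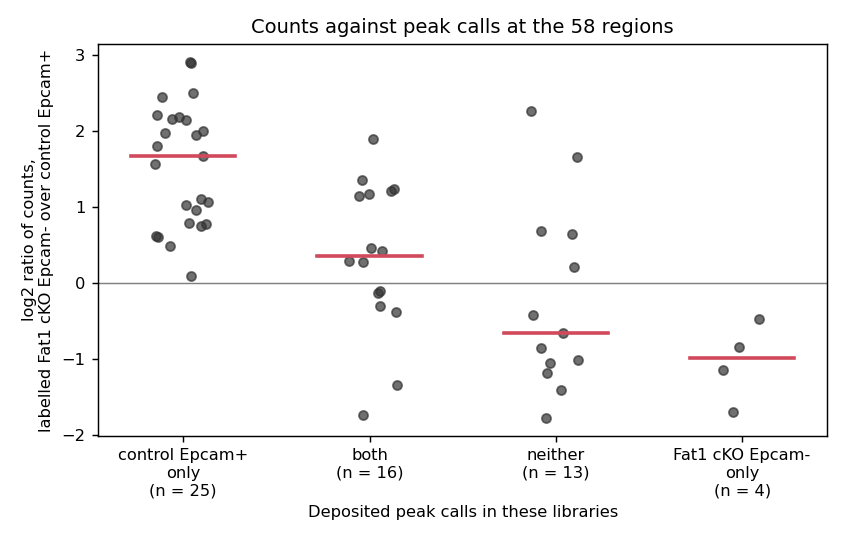
Each point is 1 of the 58 regions, grouped by the deposited peak calls in the libraries labelled as control Epcam+ and Fat1 cKO Epcam-. The vertical axis is the log2 ratio of the count columns, labelled as Fat1 cKO Epcam- over control Epcam+, and red lines are medians. The 25 regions called only in the first lie above 0, from 0.09 to 2.92, and the 4 called only in the second lie below 0, from -1.69 to -0.47.

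Nuclear counts were 4335304, 3812880 and 5485317 in the libraries labelled as control Epcam+, Fat1 cKO Epcam+ and Fat1 cKO Epcam-, and 3 values given together below keep this order. The tight junction regions took 1570, 2580 and 3101 of these counts. Markers of epithelial tumour cells summed to 525, 1633 and 1300 CPM over 11 genes, and those of mesenchymal tumour cells to 620, 516 and 325 CPM over 7 genes. Fibroblast and pericyte markers summed to 453, 331 and 178 CPM over 7 genes, endothelial markers to 196, 210 and 199 CPM over 6, and immune markers to 92.9, 93.2 and 79.5 CPM over the 5 of 8 with a region. None of the markers with a region was at 0 counts in any of the 3 libraries, and the part of other cells in the results was not tested. The 33 Y chromosome regions held 75.2, 59.6 and 217 CPM, highest in the library labelled as Fat1 cKO Epcam-. Its title differs from that of the library labelled as Fat1 cKO Epcam+ only in the ending, and the cause was not tested. Epcam itself held 67.7, 224 and 132 CPM over its 6 regions. In bulk libraries, fewer cells with an open region and less opening per cell cannot be told apart.

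Tight junctions seal the space between neighbouring epithelial cells. Claudins, which span the membrane, form the strands and set which ions pass, while occludin and tricellulin (the product of Marveld2) belong to the MARVEL family. Ildr1, an angulin, brings tricellulin to the corners where several cells meet, and the zonula occludens protein made from Tjp1 ties the strands to actin. In skin these junctions lie in the granular layer, and they are commonly taken apart when epithelial cells become mesenchymal.

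RefSeq start windows, 250 bases before to 50 after an annotated start on GRCm38.p6, were found for 9 of the 10 genes, Cldn8 being the exception. In 8 of the 9 a region overlapped a window; for Cldn17 none did. The 250 bases before the start are printed for the genes whose start regions differed most between the libraries, for Tjp1, whose start region was nearly even, and for Cldn17. They run 5′ to 3′ in the direction of the gene. Capitals mark matches on either strand to CAGGTG (an E-box bound by Zeb and Snail repressors), TGANTCA (AP-1), AACCNGTT (grainyhead-like factors), GCCNNNGGC (AP-2), GGAATG (TEAD) and GGGCGG (the GC box of Sp and Klf factors).
Ildr1 chr16:36693728-36693977, plus strand: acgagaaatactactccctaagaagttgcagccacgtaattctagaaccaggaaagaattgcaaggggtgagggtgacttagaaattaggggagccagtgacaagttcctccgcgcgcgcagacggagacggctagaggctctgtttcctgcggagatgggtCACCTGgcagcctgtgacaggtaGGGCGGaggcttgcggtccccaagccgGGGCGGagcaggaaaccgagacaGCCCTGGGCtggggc
Cldn7 chr11:69965171-69965420, plus strand: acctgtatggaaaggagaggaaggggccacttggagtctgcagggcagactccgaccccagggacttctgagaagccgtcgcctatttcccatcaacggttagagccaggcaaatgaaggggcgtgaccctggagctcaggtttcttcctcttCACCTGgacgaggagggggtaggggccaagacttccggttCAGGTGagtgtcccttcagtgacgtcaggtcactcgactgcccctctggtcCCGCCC
Cldn3 chr5:134985964-134986213, plus strand: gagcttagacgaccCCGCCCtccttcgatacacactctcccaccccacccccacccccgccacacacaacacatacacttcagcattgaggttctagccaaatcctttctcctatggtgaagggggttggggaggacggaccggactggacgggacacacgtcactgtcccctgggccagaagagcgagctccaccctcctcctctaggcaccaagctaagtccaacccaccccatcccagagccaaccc
Cldn4 chr5:134946935-134947184, minus strand: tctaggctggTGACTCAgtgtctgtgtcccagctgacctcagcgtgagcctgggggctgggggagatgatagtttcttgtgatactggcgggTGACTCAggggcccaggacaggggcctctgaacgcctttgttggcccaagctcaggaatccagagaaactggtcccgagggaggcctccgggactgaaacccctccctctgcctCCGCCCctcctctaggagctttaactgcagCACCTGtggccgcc
Ocln chr13:100552499-100552748, minus strand: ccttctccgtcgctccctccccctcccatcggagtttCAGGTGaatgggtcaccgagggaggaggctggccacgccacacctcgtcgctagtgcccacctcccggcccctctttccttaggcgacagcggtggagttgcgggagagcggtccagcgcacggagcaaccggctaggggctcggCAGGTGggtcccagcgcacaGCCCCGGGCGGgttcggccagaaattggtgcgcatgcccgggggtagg
Tjp1 chr7:65371245-65371494, minus strand: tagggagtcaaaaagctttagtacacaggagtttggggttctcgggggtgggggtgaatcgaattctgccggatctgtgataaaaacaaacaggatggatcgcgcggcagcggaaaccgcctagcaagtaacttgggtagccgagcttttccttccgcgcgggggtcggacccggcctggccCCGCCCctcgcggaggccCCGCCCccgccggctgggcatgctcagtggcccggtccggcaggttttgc
Cldn17 chr16:88506979-88507228, minus strand: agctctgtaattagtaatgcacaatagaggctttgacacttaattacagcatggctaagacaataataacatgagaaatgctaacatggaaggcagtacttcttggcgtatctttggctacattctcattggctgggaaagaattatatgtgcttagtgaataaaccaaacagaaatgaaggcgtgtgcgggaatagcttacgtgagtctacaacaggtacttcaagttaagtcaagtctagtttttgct

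These letters are a description of the windows and do not show binding. CAGGTG occurred before a start of 4 of the 9 genes (Cldn4, Cldn7, Ocln and Ildr1), against 16.9% of 21237 windows of the same length over all protein-coding genes. Cldn7 held it 57 to 52 and, on the other strand, 97 to 92 bases before the start shown, and Ocln held it at 2 places. The GC box occurred in 8 of the 9 genes, all but Cldn17, against 42.6% of windows. AP-2 letters occurred in Ocln, Marveld2 and Ildr1 (16.3% of windows), and in Ocln they overlap the GC box. AP-1 letters were in Cldn4 alone, at 2 places (6.14% of windows), TEAD letters in Cldn7 alone, before its other start (11.7%), and grainyhead-like letters in none of the 9 (1.69%). Genes with more than 1 start window had more chances of a match. The windows also differed in base composition: Tjp1 and the Ocln window shown held 22 CpG dinucleotides each and Cldn17 held 4, against a median of 10. GC content was 38.4% before Cldn17 and between 50.4% and 69.2% in the other windows, and the median over all windows was 55.6%.

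Summed over its regions, each of the 10 genes had at least 20 counts in 1 library of every pair, the minimum used here for calling a gene. A gene was called when its log2 ratio, computed with a prior count of 2, reached 2-fold. Ildr1 had 18 counts in the library labelled as control Epcam+, and Cldn17 had 16 in that labelled as Fat1 cKO Epcam+. Each was under the minimum there, so a call against that library could only have the library as the lower one. The library labelled as Fat1 cKO Epcam+ was highest for 6 genes (Cldn3, Cldn4, Cldn7, Tjp1, Marveld2 and Ildr1) and that labelled as Fat1 cKO Epcam- for 4 (Cldn1, Cldn8, Cldn17 and Ocln). The library labelled as control Epcam+ was lowest for 8 of the 10 genes. The exceptions were Cldn17, lowest in that labelled as Fat1 cKO Epcam+, and Tjp1, lowest in that labelled as Fat1 cKO Epcam-.

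**Figure D2:**
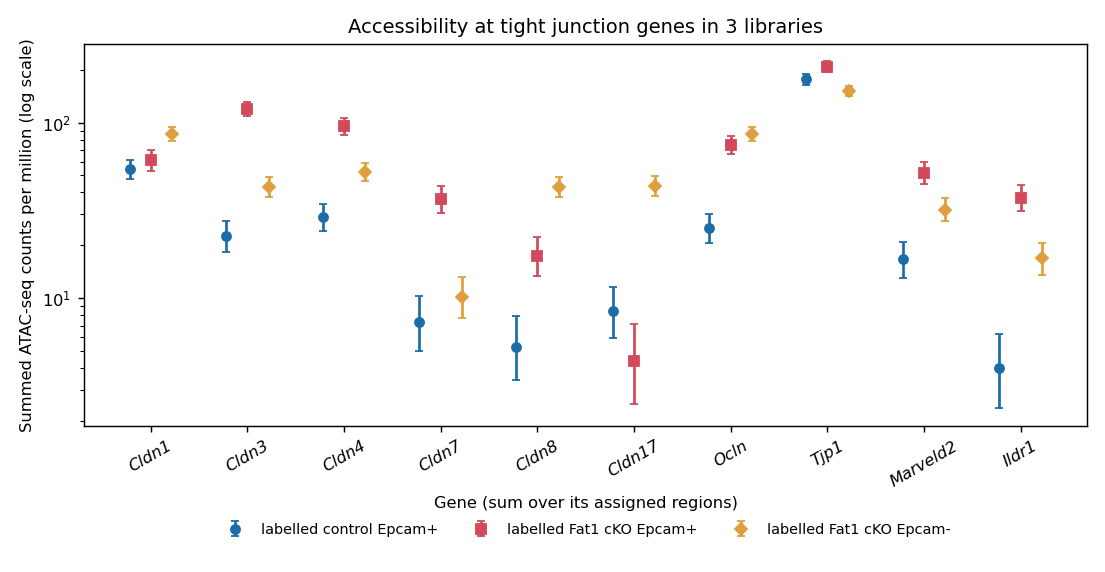
Points are CPM summed over the regions of each gene, on a log axis, for the 3 libraries by label, and bars are exact 95% Poisson intervals. Cldn17 spans 4.37 to 43.6 CPM, while Tjp1 lies between 151 and 208 CPM in all 3 libraries.

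The first comparison, on Fat1 deletion in Epcam+ cells, set the library labelled as Fat1 cKO Epcam+ over that labelled as control Epcam+. Of the 10 genes 7 were at least 2-fold higher (Cldn3, Cldn4, Cldn7, Cldn8, Ocln, Marveld2 and Ildr1), and 0 were at least 2-fold lower. Over all 15236 genes with enough counts, 7.2% were called higher and 4.27% lower. Those shares stand for 1097 and 651 genes, which total-count scaling turned into 880 and 849, with the 10 genes at 7 and 0 as before. The median log2 ratio was 1.63 over the 10 genes and 0.05 over all genes. Cldn1, Tjp1 and Cldn17 were under 2-fold. Among single regions 32 of the 58 had enough counts, of which 17 were at least 2-fold higher and 0 lower, against 18.8% and 16.3% of all regions.

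The second comparison, on Epcam- against Epcam+ cells of the Fat1-deleted tumours, set the library labelled as Fat1 cKO Epcam- over that labelled as Fat1 cKO Epcam+. Here the family split: 2 genes were at least 2-fold higher (Cldn8 and Cldn17) and 3 at least 2-fold lower (Cldn3, Cldn7 and Ildr1). The background was 9.49% of genes called higher and 6.28% lower, and the medians were -0.57 over the 10 genes and 0.00 over all genes. With each chromosome's median centred at 0, the split became 1 higher and 4 lower. In that alternative Cldn8 fell under the threshold, at 0.98, and Cldn4 passed it, at -1.02. Of 46 regions with enough counts 12 were higher (26.1%, close to the 25% of all regions) and 11 lower (23.9%, against 17.5%). In any pair, a region under the minimum of 20 counts in 1 library could only be called lower there. Most of the 12 were under that minimum in the library labelled as Fat1 cKO Epcam+, so their direction is no separate evidence. The exceptions were a Cldn1 region (28 counts there) and a Cldn8 region (47). Several of the 11 were under it in the library labelled as Fat1 cKO Epcam-.

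In the third comparison the library labelled as Fat1 cKO Epcam- was divided by that labelled as control Epcam+, groups that differ in genotype and in Epcam at once. At least 2-fold higher were 4 genes (Cldn8, Cldn17, Ocln and Ildr1), and 0 were at least 2-fold lower, with 12.4% and 6.11% of all genes called. These are 1959 and 963 genes, or 1477 and 1237 with each chromosome's median centred at 0, where the 10 genes again gave 4 and 0. The medians were 0.92 over the 10 genes and 0.07 over all genes. Cldn3, Marveld2 and Cldn4 stood just under 2-fold, and each passed it over regions at an annotated start. In 43 regions with enough counts 24 were higher and 3 lower, where all regions gave 28.4% and 19.3%. The comparisons share libraries, so their counts are not independent of each other.

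With the names of the 2 count columns exchanged, the first comparison would have 3 genes higher and 2 lower (median 0.57), the second 0 higher and 7 lower (median -1.63), and the third 0 higher and 4 lower (median -0.92). All genes would give 6.28% higher and 9.49% lower, 4.27% and 7.2%, and 6.11% and 12.4%. Single regions would give 11 higher and 12 lower of 46 with enough counts, 0 and 17 of 32, and 3 and 24 of 43. All regions would give 17.5% and 25%, 16.3% and 18.8%, and 19.3% and 28.4%. In the first comparison the shares of the tight junction regions, 23.9% and 26.1%, would be close to these. For any gene or region below, a log2 ratio of the first comparison would become one of the second and the reverse, and that of the third would stay in place, each with its sign turned. Under that reading the Epcam- library would be the lowest for 8 of the 10 genes.

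**Figure D3:**
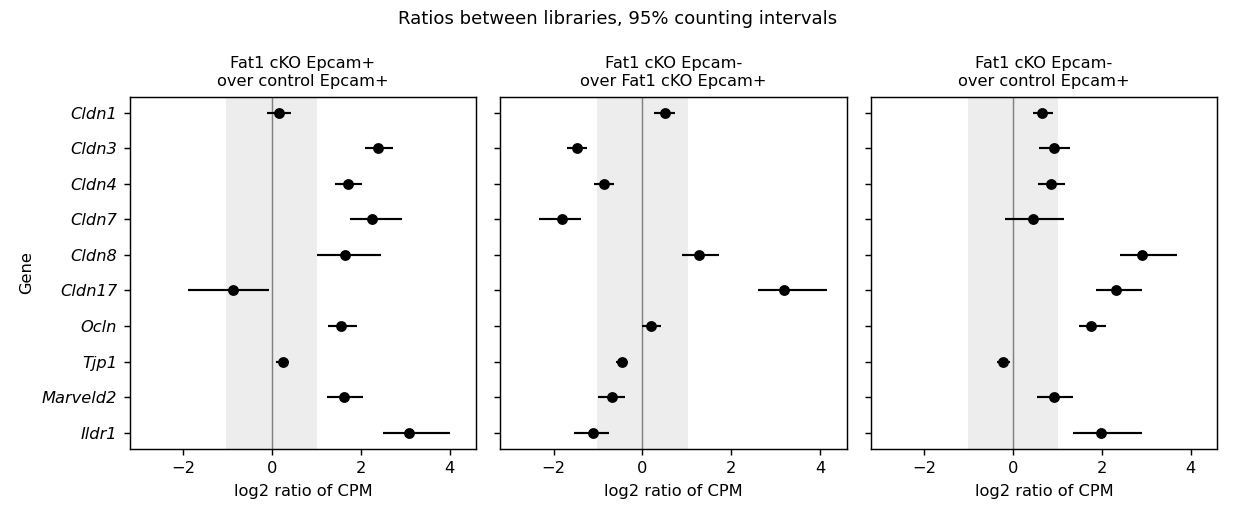
Points are log2 ratios of summed CPM for the 10 genes in the 3 pairs of libraries by label, lines are 95% Clopper-Pearson intervals for counting error, and the grey band is under 2-fold. In the left panel 7 genes lie to the right of the band. In the middle panel Cldn17 lies far right at 3.19 and Cldn7 far left at -1.80.

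Ildr1, which recruits tricellulin to cell corners, had the largest log2 ratio of the 10 genes in the first comparison as labelled. With the column names exchanged its ratio there would be 1.12, below Cldn7 (1.80) and Cldn3 (1.46), and Cldn17 would be farthest from 0 (-3.19). The gene spans 36693978 to 36726804 of chromosome 16, and its 2 regions held 3.99, 37.2 and 16.9 CPM, or 18, 136 and 93 counts. Both Fat1 cKO libraries by label stood above that labelled as control Epcam+, and no interval overlapped another. The gene was 8.49-fold higher in the library labelled as Fat1 cKO Epcam+ than in that labelled as control Epcam+ (log2 ratio 3.09, 2.50 to 4.02). It was 2.17-fold lower in that labelled as Fat1 cKO Epcam- than in that labelled as Fat1 cKO Epcam+ (-1.12, -1.53 to -0.75). Nearly all counts came from the region over its start, from 36693707 to 36694542, with 14, 121 and 84 counts. The other region lies 15.7 kb into the gene (36709400 to 36710001) and held 4, 15 and 9 counts. The start region was called as a peak in the libraries labelled as control Epcam+ and Fat1 cKO Epcam+ and not in that labelled as Fat1 cKO Epcam-.

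Marveld2 encodes tricellulin, the protein that Ildr1 recruits. The gene spans 100595957 to 100616971 of chromosome 13, and its 3 regions summed to 16.6, 52.0 and 32.0 CPM. As for Ildr1, the library labelled as Fat1 cKO Epcam+ was highest and that labelled as control Epcam+ lowest, and the intervals were apart. The first comparison gave 3.07-fold (log2 ratio 1.62, 1.25 to 2.05) and the second -0.69 (-1.003 to -0.40). The sum hides regions that went opposite ways. Over the start, from 100616109 to 100617050, the counts were 31, 68 and 88. Inside the gene, from 100600323 to 100601234, they were 23, 87 and 7, a log2 ratio of -3.82 (-5.58 to -3.12) in the second comparison. The region beyond the far end of the gene, from 100581578 to 100582521, held 21, 35 and 81 counts. Over regions within 10 kb of the gene, which leaves this last one out, the second comparison reached -1.27, and over the start alone it was -0.21.

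Ocln, the gene of occludin, neighbours Marveld2 at a gap of 43.2 kb with no protein-coding gene between them. It lies from 100496504 to 100552718, and its 7 regions summed to 25.1, 74.6 and 85.8 CPM. The Fat1 cKO libraries by label overlapped within their counting intervals, and both stood above that labelled as control Epcam+. The log2 ratios against the latter were 1.56 (1.25 to 1.90) for the library labelled as Fat1 cKO Epcam+ and 1.76 (1.48 to 2.08) for that labelled as Fat1 cKO Epcam-. The second comparison gave 0.20 (-0.02 to 0.42), which turned to -0.02 with each chromosome's median centred at 0. The region over the start, from 100551393 to 100553631, held 53, 143 and 247 counts. A region 16.1 kb into the gene (100535889 to 100536909) held 12, 70 and 74 counts. Far into the gene, a region from 100514021 to 100514331 held 2, 18 and 21 counts, also low in the library labelled as control Epcam+ alone. From 100518095 to 100518419, by contrast, the counts were 4, 4 and 39. The median over the 7 regions gave 0.37 in the first comparison, under 2-fold.

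Cldn4 (134945123 to 134946934) and Cldn3 (134986214 to 134987476) are neighbours on chromosome 5, 39.3 kb apart with no protein-coding gene between them. Their products are known as receptors of a Clostridium enterotoxin and are typical of simple epithelia. Cldn3 summed to 22.6, 119 and 43.1 CPM over 4 regions, and Cldn4 to 28.8, 95.2 and 52.2 CPM over 4. Both genes were highest in the library labelled as Fat1 cKO Epcam+ and lowest in that labelled as control Epcam+, with all intervals apart.

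Cldn3 was 5.20-fold higher in the first comparison (log2 ratio 2.38, 2.09 to 2.73) and 2.75-fold lower in the second (-1.46, -1.71 to -1.24). Cldn4 stood at 3.27-fold (1.71, 1.43 to 2.02) and at -0.86 (-1.10 to -0.64). In the third, Cldn3 had 0.92 (0.59 to 1.28) and Cldn4 0.85 (0.55 to 1.17). All 4 Cldn3 regions were at least 2-fold higher in the first comparison and at least 2-fold lower in the second.

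At the starts, the counts were 24, 146 and 64 for Cldn3 (134985539 to 134986902) and 43, 159 and 125 for Cldn4 (134946405 to 134947395). A Cldn3 region 4.7 kb before the start, from 134981287 to 134981691, held 12, 43 and 4 counts. The region 4.4 kb before the Cldn4 start, from 134950956 to 134951809, held 27, 99 and 88. The region with most counts of this pair of genes, from 134965656 to 134967697, held 50, 214 and 148 counts and lies almost midway between them. It is 19538 bp from Cldn3 and 19742 bp from Cldn4, so 204 bp decide its gene. Counted with Cldn4, it left Cldn3 at -1.89 in the second comparison and at 0.47 in the third, and no call of either gene changed.

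Cldn7 makes a claudin that binds Epcam, the protein the cells were sorted on. It summed to 7.32, 36.6 and 10.2 CPM over 3 regions on chromosome 11, where the gene spans 69964779 to 69967886. The library labelled as Fat1 cKO Epcam+ stood alone above the others, whose intervals overlapped. The log2 ratios were 2.26 (1.76 to 2.92), -1.80 (-2.32 to -1.39) and 0.45 (-0.17 to 1.14) in the 3 comparisons. The region over the start window shown above, from 69964970 to 69965752, held 10, 85 and 20 counts, with log2 ratios of 3.16 (2.44 to 4.50) and -2.54 (-3.46 to -1.96) in the first and second comparisons. The region 3.0 kb before the other annotated start, at 69964779, ran from 69961589 to 69962030 and held 7, 26 and 13 counts. Inside the gene, from 69966304 to 69966888, the counts of 16, 23 and 23 were under 2-fold in each pair.

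Cldn8 (88560826 to 88563183) and Cldn17 (88505807 to 88506978), neighbours on chromosome 16 at a gap of 53.8 kb with no protein-coding gene between them, shared a different pattern. Claudin-17 forms an anion pore, and claudin-8 is best known from the distal kidney tubule. Cldn8 summed to 5.32, 17.5 and 42.9 CPM over 3 regions and Cldn17 to 8.43, 4.37 and 43.6 CPM over 5. In both, the library labelled as Fat1 cKO Epcam- lay above the others with no overlap of intervals. They parted in the remaining libraries: Cldn8 was 3.11-fold higher in that labelled as Fat1 cKO Epcam+ than in that labelled as control Epcam+ (log2 ratio 1.64, 1.02 to 2.46), while Cldn17 stood at -0.88 (-1.89 to -0.07). Over regions with a peak call in at least 1 library, Cldn17 passed the threshold at -1.08.

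Cldn17 was 9.16-fold higher in the second comparison (3.19, 2.59 to 4.15) and 4.97-fold in the third (2.31, 1.87 to 2.91). Its 16 counts in the library labelled as Fat1 cKO Epcam+ lie under the minimum, so its call in the second could only be higher. Cldn8 was 2.42-fold higher (1.27, 0.89 to 1.72) and 7.52-fold (2.91, 2.40 to 3.68). At Cldn8 most counts came from the region within 1 kb of a gene end, from 88562492 to 88563934, with 19, 47 and 188 counts. At Cldn17 the counts came from regions far beyond the end of the gene. They held 15, 4 and 78 counts at 28.4 kb from the start (88478186 to 88478887), 8, 2 and 64 at 26.7 kb (88479794 to 88480846), 8, 4 and 54 at 43.5 kb and 5, 3 and 31 at 19.3 kb. Each of these 4 was called higher in the second and in the third comparison. Each reached the minimum of 20 counts only in the library labelled as Fat1 cKO Epcam-, and none had enough counts in the first comparison. With so few counts in the other libraries, the direction of these calls was largely set by that minimum. They are therefore no separate evidence of a direction. The region nearest to the Cldn17 start, 4.6 kb before it, held 2, 3 and 13 counts. The authors called the 4 distant regions as peaks in the library labelled as control Epcam+ alone. With the column names exchanged, calls and counts would both place Cldn17 in that library.

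Cldn1, the claudin whose loss opens the water barrier of the epidermis, was among the least varied. It summed to 54.3, 61.0 and 86.2 CPM over 9 regions on chromosome 16, with the gene at 26356645 to 26371839. The libraries labelled as control Epcam+ and Fat1 cKO Epcam+ overlapped, and that labelled as Fat1 cKO Epcam- lay above both. The log2 ratios were 0.16 (-0.10 to 0.43), 0.50 (0.27 to 0.74) and 0.66 (0.44 to 0.89). The first turned to -0.16 as a median over the 9 regions and to -0.10 over the start region. The second fell to 0.20, below its interval, with each chromosome's median centred at 0. A region 2.6 kb into the gene (26368573 to 26369854) held 30, 28 and 176 counts, a log2 ratio of 2.19 (1.70 to 2.88) in the third comparison. The start region, from 26371367 to 26371966, held 41, 31 and 70 counts. A region 29.1 kb before the start, from 26400235 to 26401665, ran the other way with 96, 69 and 45 counts (-1.33, -1.92 to -0.85, in the third comparison). A region 40.2 kb beyond the gene, from 26316153 to 26316712, held 22, 56 and 42 counts and was the 1 region of Cldn1 called higher in the first comparison. Over regions within 10 kb of the gene, Cldn1 passed 2-fold in the second and in the third comparison, at 1.37 and 1.45, while the first stayed at 0.09.

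Tjp1, the scaffold gene that many cell types use, had the most regions and stayed under 2-fold in each comparison. Its 18 regions on chromosome 7 (gene at 65296165 to 65527850) summed to 176, 208 and 151 CPM. The intervals of the 3 libraries did not overlap, and the log2 ratios were 0.24 (0.09 to 0.39), -0.46 (-0.60 to -0.32) and -0.22 (-0.36 to -0.08). The last 2 turned to 0.03 and 0.09 with each chromosome's median centred at 0. Over the annotated start, from 65370249 to 65371719, the counts of 236, 218 and 267 were close to even, with a log2 ratio of 0.19 (-0.08 to 0.46) in the first comparison and -0.11 (-0.37 to 0.15) in the third. Regions inside the gene body but before that start differed more, and in opposite directions. From 65410240 to 65411344 the counts were 158, 71 and 56 (-1.74, -2.25 to -1.33, in the third comparison). From 65469392 to 65470592 they were 117, 219 and 173 (1.19, 0.88 to 1.54, in the first). From 65446159 to 65446975 they were 28, 14 and 79 (1.79, 1.08 to 2.84, in the second).

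**Figure D4:**
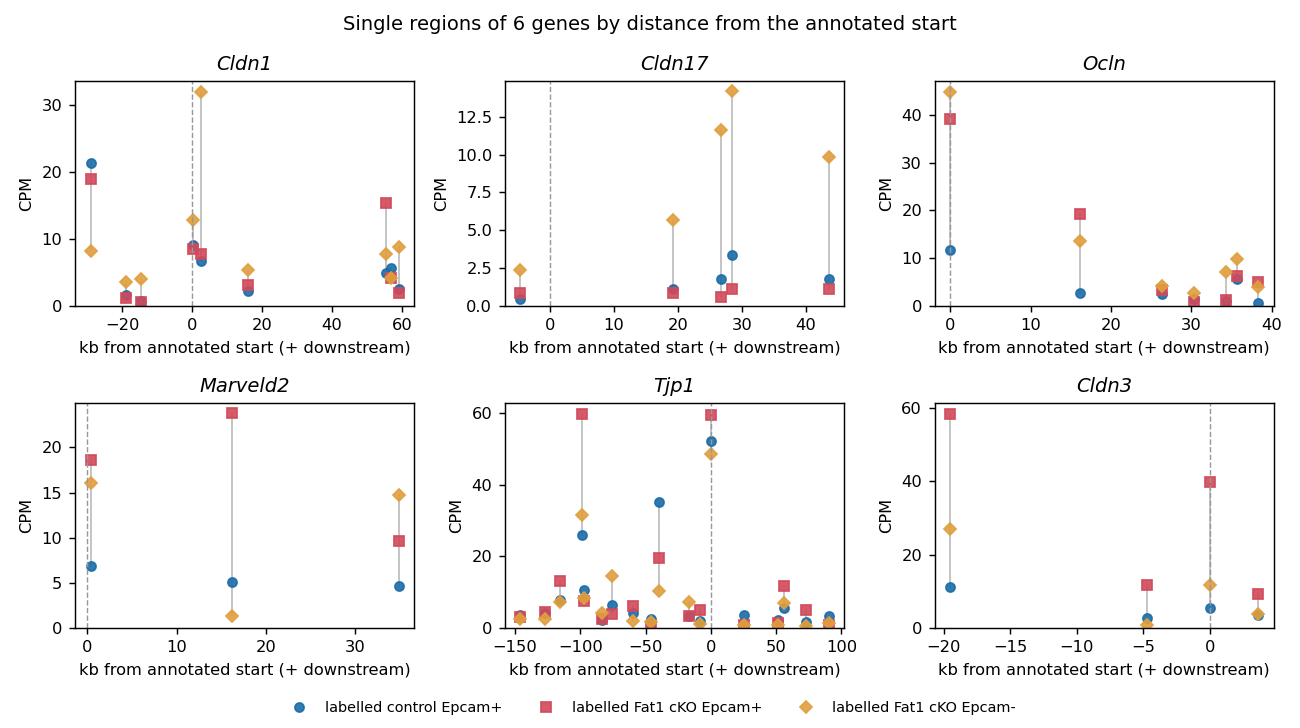
Every region of 6 genes is placed by the distance of its midpoint from the nearest annotated start, in kb and positive in the direction of the gene, with its CPM in the 3 libraries by label and a dashed line at the start. Cldn17 has its counts 19.3 to 43.5 kb downstream, and Tjp1 has 1 region near even at the start and regions that differ in opposite directions before it.

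Of the 8 regions over a start, 6 were at least 2-fold higher and 0 lower in the first comparison, against 5.67% and 3.75% of all regions over a gene start. In the second comparison 0 were higher and 3 lower (8.23% and 4.3%), and in the third 5 were higher and 0 lower (10.6% and 4.3%). The start regions of Cldn7 and Ildr1 held 10 and 14 counts in the library labelled as control Epcam+, under the minimum of 20. Any call of theirs against it could only be higher. Over the 8 start regions the medians were 1.92, -0.61 and 1.12. In the 50 other regions the medians, over those with enough counts, were 0.96, 0.03 and 1.10. With the column names exchanged the start regions would give 3 higher and 0 lower, 0 and 6, and 0 and 5 in the 3 comparisons. All regions over a gene start would give 4.3% higher and 8.23% lower, 3.75% and 5.67%, and 4.3% and 10.6%.

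Levels can be set between genes only per length of region. Per kb of assigned region, Tjp1 was highest in the library labelled as control Epcam+ at 14.3 CPM, Cldn4 in that labelled as Fat1 cKO Epcam+ at 34.8 CPM and again in that labelled as Fat1 cKO Epcam- at 19.1 CPM. The lowest were Cldn8 at 2.22 CPM per kb in the first of these libraries, Cldn17 at 1.33 in the next and Cldn7 at 5.63 in the last.

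Peak calls gave another order of the libraries from that of the counts. They were made on the same libraries as the counts and are not an independent readout. Of the 58 regions 41 were called in the library labelled as control Epcam+, 34 in that labelled as Fat1 cKO Epcam+ and 20 in that labelled as Fat1 cKO Epcam-. As shares these are 70.7%, 58.6% and 34.5%, against 57.1%, 42.5% and 49.7% of all nuclear regions. All 3 libraries shared 13 calls (22.4%, against 26.9% of all nuclear regions), and 4 regions were called in none (6.90% against 20.8%). Regions called in 1 library alone numbered 9 for that labelled as Fat1 cKO Epcam+ (15.5%, against 5.59% of all nuclear regions). For that labelled as Fat1 cKO Epcam- they numbered 3 (5.17% against 11.2%). Calls in the library labelled as control Epcam+ alone were made in 14 regions (24.1%, near the 19.2% of all nuclear regions). Of these 14, 4 each lay at Cldn1 and Cldn17, and the median counts of the 14 were 8, 4 and 30. In 13 of these 14 the CPM was highest in the column labelled as Fat1 cKO Epcam-.

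Other genes of the tight junction and of the polarity complexes beside it were read from a list of 51, of which 45 had a region. In the first comparison 8 of 45 were at least 2-fold higher and 0 lower, beside 7.2% and 4.27% of all genes, with a median log2 ratio of 0.30. With the column names exchanged it would be 3 higher and 1 lower, beside 6.28% and 9.49% of all genes. Crb3, a polarity gene of the apical membrane, held 18, 71 and 135 counts in 1 region and was 4.48-fold higher. Cldn6, a claudin of embryonic epithelia, was 3.35-fold higher on 31, 88 and 78 counts, and Prkcz, an atypical protein kinase C of the polarity complex, 3.05-fold on 165, 412 and 456. The remaining 5 were Cldn2, Lsr, F11r, Cxadr and Cgn, named outside the size rule to complete the count.

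In the second comparison 1 of 45 was higher and 3 lower, with a median of -0.06, which became 2 and 2 under total-count scaling. These shares are near or below the 9.49% and 6.28% of all genes. Exchanged names would give 0 higher and 8 lower, beside 4.27% and 7.2% of all genes. Ildr2, another angulin gene, was 2.45-fold higher (37, 30 and 114 counts). Cldn2, whose product forms a cation pore, was 3.30-fold lower (28, 63 and 27), and Jam2, a junctional adhesion molecule gene, 2.01-fold lower (89, 118 and 87). Lsr, also an angulin gene, was the other lower gene, on 9, 23 and 10 counts in 1 region, and is likewise named outside the size rule.

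In the third comparison 7 of 44 with enough counts were higher and 1 lower, with a median of 0.37, and the split became 4 and 3 with each chromosome's median centred at 0. All genes gave 12.4% and 6.11%, so the list's 15.9% higher is close to the background. Exchanged names would give 1 higher and 7 lower, beside 6.11% and 12.4% of all genes. Crb3 was 5.64-fold higher and Cxadr, a virus receptor and adhesion gene, 2.83-fold (193, 447 and 670 counts). Ildr2 was 2.45-fold higher here as well. Cldn18 was 2.07-fold lower on 258, 194 and 151 counts. The 10 genes were chosen for their differences and this longer list was not trimmed by value, so they cannot be set against each other as a result.

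**Figure D5:**
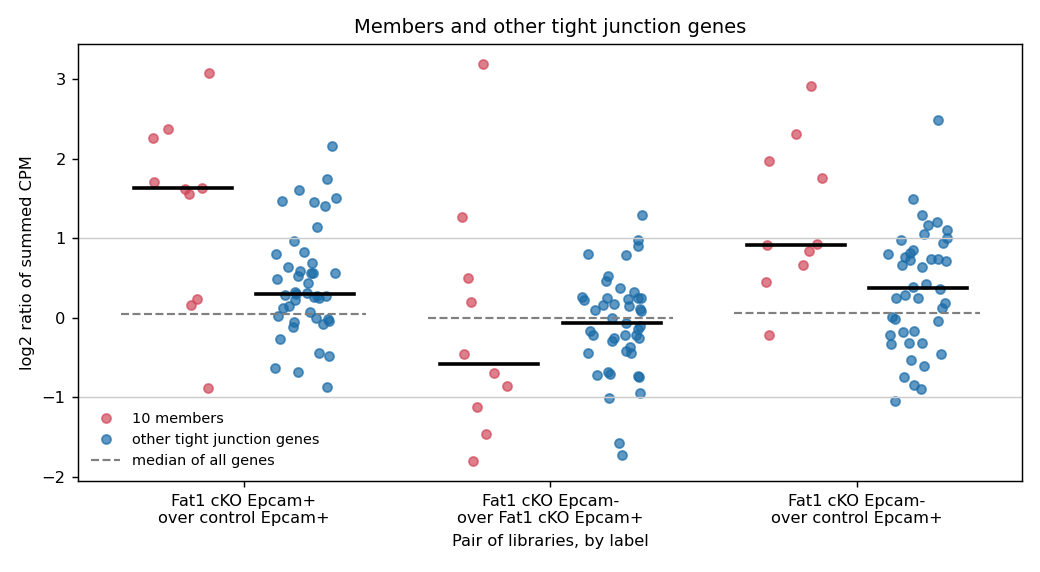
Points are log2 ratios of summed CPM in the 3 pairs of libraries by label, for the 10 genes (red) and for the other tight junction genes with enough counts (blue), with their medians as black bars and the median of all genes dashed. The 10 genes have medians of 1.63, -0.57 and 0.92, and the others 0.30, -0.06 and 0.37.

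Among 10165 genes with at least 2 regions and 100 counts in 1 library, those with the pattern most like that of a tight junction gene were found by Euclidean distance over the log2 ratios to the library labelled as control Epcam+. With only 3 libraries this likeness is weak as a description. Exchanged column names would change the library of reference, and the likeness was not computed for that reading. Nearest to Ildr1 were Krt6a, a stress keratin gene (distance 0.33), Cntnap5b (0.58) and the myosin gene Myh14 (0.62). Nearest to Cldn7 were B3gnt3 (0.21), Atp6v1c2 (0.27) and Clec12a (0.27), and nearest to Cldn17 were Slc16a7 (0.15), Gm2832 (0.30) and Glyat (0.35).

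The 50 kb limit cut few regions. The farthest inside were at 43.9 kb from Cldn1 (11, 7 and 48 counts) and at 42.3 kb from Cldn17 (8, 4 and 54). Just outside were a region 79.9 kb from Cldn17 (2, 5 and 29 counts) and one 105 kb from Cldn1 (25, 34 and 77). In all, 5 regions had one of the 10 genes as the nearest and lay beyond the limit.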

How the data were processed

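The authors deposited raw counts per merged region and, for each library, whether a peak was called there (other values), per the file headers. Without stating roles, the submitters' processing notes name mm10 (GRCm38), MACS2 2.1.0.20151222, Bowtie2 2.2.6, Picard and SAMtools. The sources used here do not give the counting tool, filters, any Tn5 shift or the peak threshold. Coordinates are printed as the file gives them.

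Columns equal sample titles. After 2 mitochondrial regions (39.1% to 42.6% of counts) were left out, TMM factors came from edgeR 4.0.16 in R 4.3.3. Ratios with a prior count of 2, Clopper-Pearson and exact Poisson intervals were computed in Python 3.11.15 and checked on simulated data. A midpoint inside several gene bodies went to the gene with the nearer end. Calling needed 2-fold and 20 counts in either library of a pair. No p-value exists without replicates. The labels name no molecular identifiers, so copies of a molecule can make intervals too narrow. Gene positions, starts and sequences are from RefSeq tables of GRCm38.p6. No genome sequence was used, so exons and introns are not stated, nor were region sequences searched.

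Named were the 10 genes, their start, highest and most different regions, up to 3 listed genes per direction and pair with at least 50 counts, and 3 genes nearest in pattern to Ildr1, Cldn7 and Cldn17; further regions were named after their values were seen. The genes and lists were chosen with earlier results of these data known. The alternatives were other scalings, prior counts, count minimums, ways of assigning or combining regions, and centring by chromosome.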

Additional observations from a re-analysis of the deposited data

How the results depend on the processing

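No result that was called at 2-fold changed direction under the 12 alternatives, 2 of which (regions over an annotated start, and the region between Cldn4 and Cldn3 counted with Cldn4) were chosen after seeing the data. Exchanging the names of the 2 count columns, given above, is not among the 12 and does turn directions. The third comparison then has 0 genes higher and 4 lower. Of 344 single-gene values under the 12 alternatives, 307 stayed within the interval of the reported ratio. Of 16 called ratios 14 stayed at 2-fold or more wherever a value could be had. The exceptions were Ocln in the first comparison (0.37 as a median over regions) and Cldn8 in the second (0.98 after centring each chromosome). Over regions with a peak call in at least 1 library, the first comparison had 1 gene lower, Cldn17, in place of 0. In the second, the count of higher genes was 1 in place of 2 over regions within 1 kb of a gene end and after centring each chromosome's median at 0. Over annotated starts it was 0, but only 8 genes remain there. Cldn8 drops out because no start window was found for it, and Cldn17 because no region overlaps its window. The setting therefore cannot show whether Cldn8 differs at its start. The median of the second comparison was -0.86 over regions within 10 kb. The other tight junction genes at least 2-fold apart in the second comparison numbered 4, but 1 over regions within 1 kb of a gene end and 7 as a median over regions. The cause of these changes was not tested, apart from the fewer genes with a region. Total-count scaling moved the median of all genes by -0.11 in the first comparison, and centring by chromosome moved it by -0.13 and -0.19 in the second and in the third. No paired analysis was possible because each group has 1 library. Depth limits single regions most: 1 count is worth 0.182 to 0.273 CPM, and 32 to 46 of the 58 regions had 20 counts in a pair.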
